A study of Homo sapiens with 24 samples.

Results

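The thrombin receptor gene F2R and 8 genes of the same receptor family and of the tissue factor and protein C pathways were followed in SK-MES-1 cells with and without TGFβ. The 9 genes are F2R, F2RL1, F2RL2 and F2RL3, which encode the protease-activated receptors, F3, TFPI and TFPI2, which encode tissue factor and related inhibitors, and PROCR and THBD, which encode receptors of the protein C system. They are 9 of the 34834 genes with a transcript in the tables and were chosen by the level of F2R in these libraries, which was much higher with TGFβ, together with the known partners of its product. The difference of F2R between the arms is therefore given as a description without a test, and tests are given for the other 8 genes. All 9 genes had at least 10 estimated counts in each of the 24 libraries.

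SK-MES-1 is an established human line derived from a squamous carcinoma of lung. The cells were deprived of serum for 3 h and then left untreated or given 2 ng/ml TGFβ1, and RNA was collected at 0, 8, 24 and 48 h. Each of the 8 groups (untreated or TGFβ arm, at each time) holds 3 libraries, and the TGFβ arm at 0 h stands for the start of stimulation. All groups come from 1 cell line and share the serum deprivation, and the study describes the replicates as biological. The labels do not say that they were separate cultures, so the p-values measure the spread between these libraries.

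Protease-activated receptors are G protein-coupled receptors that carry their own ligand: a protease cuts the extracellular end, and the new end activates the same molecule. PAR1 (F2R), PAR3 (F2RL2) and PAR4 (F2RL3) are cut by thrombin, whereas PAR2 (F2RL1) is cut by trypsin-like proteases and by the complex of tissue factor and factor VIIa. Tissue factor starts the coagulation cascade that ends in thrombin, TFPI blocks that start, and thrombomodulin (THBD) together with the endothelial protein C receptor (PROCR) turns thrombin towards activation of protein C. Several of these proteins are best known from vessel walls and platelets, and they are also made by carcinoma cells.

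The 3 receptor genes F2RL2, F2R and F2RL1 lie in this order on chromosome 5. In GRCh38 with GENCODE 44, F2RL2 spans chr5:76615482-76623413 on the minus strand, F2R chr5:76716126-76735770 on the plus strand and F2RL1 chr5:76818933-76835315 on the plus strand, with gaps of 92713 and 83163 bases between them. F2RL3 lies apart at chr19:16888999-16892606 on the plus strand. F3 (chr1:94529173-94541759), TFPI (chr2:187464230-187565760), TFPI2 (chr7:93885396-93890753) and THBD (chr20:23045633-23049672) are on the minus strand and PROCR (chr20:35172072-35216240) is on the plus strand. F2RL2 lies inside IQGAP2 on the opposite strand, and TFPI2 overlaps GNGT1 and PROCR overlaps MMP24OS, also on the opposite strand. F2R, F2RL1, TFPI and PROCR overlap long non-coding RNA genes on the opposite strand, for TFPI CALCRL-AS1. The strand setting of the quantification is not given in the sources used here, and reads of such overlaps could not be told apart without it.

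The sequence just upstream of the start is shown for the 3 tested members that were higher with TGFβ at 8, 24 and 48 h, F2RL1, F2RL2 and F3. The sequences come from RefSeq promoter windows (GRCh38.p14, 250 bases before to 50 after the start) and are given 5′ to 3′ on the strand of the gene, ending before the first annotated exon. Capitals mark matches on either strand to CAGAC, the core of the SMAD binding element, or to TGANTCA, an AP-1 type motif, and a TGANTCA site that reads on both strands was counted once. F2RL1 is chr5:76818780-76818932 on the plus strand, F2RL2 is chr5:76623414-76623653 on the minus strand and F3 is chr1:94541760-94542009 on the minus strand.
F2RL1: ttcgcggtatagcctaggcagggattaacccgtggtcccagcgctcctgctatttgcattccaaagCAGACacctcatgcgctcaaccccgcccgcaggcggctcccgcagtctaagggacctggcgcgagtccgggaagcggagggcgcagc
F2RL2: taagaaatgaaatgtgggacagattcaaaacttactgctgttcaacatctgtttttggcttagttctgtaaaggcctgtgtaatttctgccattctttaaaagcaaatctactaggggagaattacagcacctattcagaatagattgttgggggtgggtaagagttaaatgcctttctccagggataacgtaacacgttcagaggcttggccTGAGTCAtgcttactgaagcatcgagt
F3: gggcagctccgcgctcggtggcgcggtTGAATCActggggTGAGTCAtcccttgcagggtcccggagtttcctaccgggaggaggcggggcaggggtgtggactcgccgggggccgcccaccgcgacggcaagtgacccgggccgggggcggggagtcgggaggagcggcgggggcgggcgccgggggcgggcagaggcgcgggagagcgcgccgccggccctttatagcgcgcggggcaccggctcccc
F2RL1 held 1 CAGAC and no TGANTCA, F2RL2 held 1 TGANTCA and F3 held 2. Of all 35116 promoter windows of 300 bases, 45.261% held a CAGAC and 7.709% a TGANTCA. A window was found for 7 of the 9 members and not for F2R and THBD. Among those 7, CAGAC was found for F2RL1, TFPI, TFPI2 and PROCR and TGANTCA for F2RL2, F3 and TFPI2, so CAGAC was found in windows of members on either side of the comparison below.

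Depth was between 46613589 and 77964234 estimated counts per library, and 17453 genes were tested with limma voom at an adjusted p below 0.01 (Benjamini-Hochberg over all tested genes). Of 7 genes known to respond to TGFβ, 5 were higher with TGFβ at 48 h, among them SMAD7 with a log2 difference of 2.47, while ID3 was lower (−2.87) and ID1 was not called (−0.21). Over all tested genes 16.1% were called higher and 16.4% lower at 48 h. Of 9 squamous and epithelial markers, TP63, SOX2, KRT17, EPCAM and CDH1 exceeded 1 TPM (a level scaled for transcript length and library size) in some library. KRT5, KRT14, KRT6A and DSG3 stayed near 0, so the label of a squamous line was borne out only in part. KRT17 had means of 1.32, 0.70, 0.43 and 5.41 TPM untreated at 0, 8, 24 and 48 h, and 70.5 TPM with TGFβ at 48 h. The summed level of 8 endothelial markers was between 1.79 and 6.33 TPM and that of 6 platelet markers between 1.51 and 3.04 TPM, and CDH5 and CLDN5 were near 0. At 48 h 3 of the 6 tested endothelial markers were higher with TGFβ (TEK, VWF and PECAM1), against 16.1% of all tested genes. Their mean levels were 0.086, 0.29 and 3.42 TPM with TGFβ and 0.017, 0.20 and 2.73 TPM untreated. VWF lost its call on both TPM scales and with length-scaled counts. None of the 4 tested platelet markers was called. Of 6 monocyte markers, summing to 13.3 to 44.1 TPM, 1 was higher and 3 were lower, against 16.1% and 16.4% of all tested genes. The part of these markers in the results was not tested. In such bulk samples fewer cells with a transcript and less of it per cell cannot be told apart. The deposited names carry 4 codes of unstated meaning, with a pair of codes for the early times (0 and 8 h) and another pair for the late times (24 and 48 h), and within a pair each code belongs to a single arm. At 8, 24 and 48 h code and arm therefore cannot be told apart. Changes from 0 to 8 h and from 24 to 48 h compare libraries of 1 code within each arm. Changes from an early to a late time, such as 0 to 48 h, compare libraries of different codes within each arm.

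At 0 h the arms were close for all 9 genes. None of the 8 genes other than F2R was called, against 0% of all tested genes, while 800 genes (4.58%) had an unadjusted p below 0.05 in limma voom, the edgeR quasi-likelihood test called 0 genes and DESeq2 called 8. The libraries of the arms overlapped for 8 of the 9 genes. The exception was F2R, with 25.1, 24.6 and 24.5 TPM untreated and 21.2, 23.9 and 23.1 TPM in the TGFβ arm, where non-overlap was found for 6.99% of tested genes (5.3% with the TGFβ arm lower). Its log2 difference at 0 h was −0.10 (standard error 0.034).

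**Figure D1:**
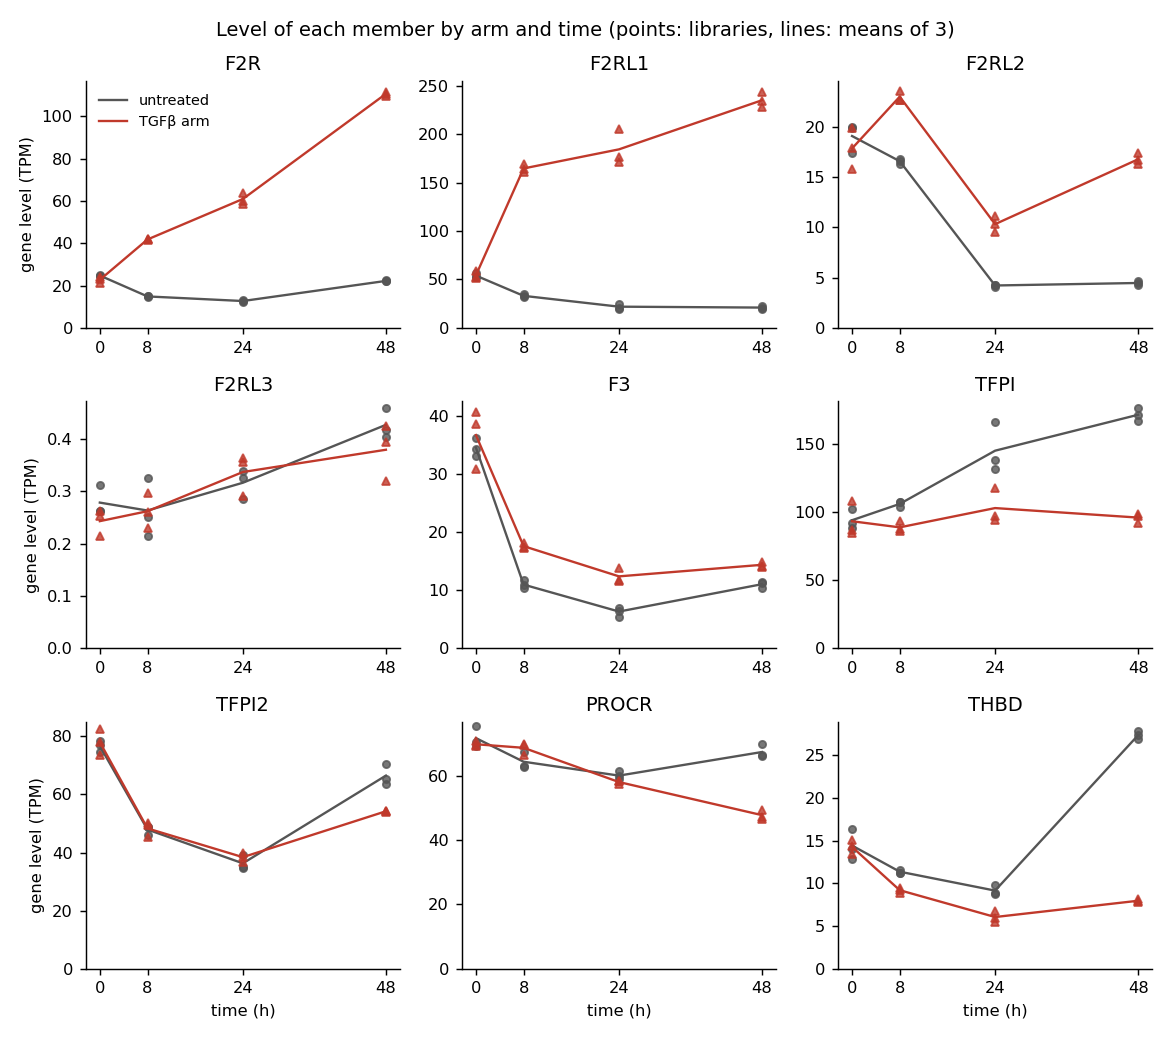
Levels of the 9 genes in TPM (y axis, from 0) against time in hours, with untreated libraries as grey circles and libraries of the TGFβ arm as red triangles, 1 point per library and lines through the means of 3. F2R and F2RL1 separate upward from 8 h on, and F2RL2 and F3 drop in untreated cells. With TGFβ F3 drops less, while F2RL2 rises to 8 h, falls to 24 h and rises again to 48 h. THBD separates most at 48 h, where untreated libraries lie near 27 TPM and TGFβ libraries near 8 TPM.

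F2R encodes PAR1, the main thrombin receptor of many human cells. Untreated cells had 15.0, 15.0 and 14.7 TPM of F2R at 8 h, 12.5, 13 and 12.6 TPM at 24 h and 22.0, 22.1 and 22.5 TPM at 48 h. Cells with TGFβ had 41.7, 41.9 and 41.8 TPM at 8 h, 60.1, 64.0 and 58.7 TPM at 24 h and 110.5, 109.6 and 112 TPM at 48 h. All TGFβ libraries lay above all untreated libraries from 8 h on. The log2 differences between the arms were 1.55, 2.31 and 2.34 (standard errors 0.033, 0.033 and 0.032), which are the values that led to the choice of these genes. The arm difference moved by 0.03 (standard error 0.046) between 24 and 48 h, while the level was higher at 48 h than at 24 h in both arms. In untreated cells, whose levels are part of these differences, the log2 change of F2R was −0.78 from 0 to 8 h and 0.77 from 24 to 48 h, given without a test.

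F2RL1, the gene of PAR2, had the largest differences of the 9 genes at 8, 24 and 48 h. It started at 52.4, 57.2 and 52.3 TPM in untreated cells and at 51.1, 59.2 and 52.5 TPM in the TGFβ arm. At 8 h untreated cells had 34.7, 32.7 and 31.9 TPM and cells with TGFβ 164, 161 and 169 TPM. At 48 h untreated cells had 19.7, 22.8 and 20.4 TPM and cells with TGFβ 228, 234 and 244 TPM, an 11.2-fold ratio of the means. The arms moved apart from both sides, since the untreated level at 48 h was 0.389 of its own 0 h level and the TGFβ level was 4.33 times its own. These ratios to 0 h compare libraries of different codes within each arm. On the log2 scale the arms differed by 2.40 after 8 h (standard error 0.066, adjusted p = 7.7e-17), by 3.12 after 24 h (0.068, 7.9e-19) and by 3.55 after 48 h (0.069, 9.5e-20), each with all TGFβ libraries above all untreated ones. The change of the arm difference from 0 to 8 h, within the codes, was 2.36 (adjusted p = 1.5e-13).

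F2RL2 encodes PAR3, which serves as a thrombin-binding partner of other receptors. It had 17.3, 20.0 and 19.9 TPM at 0 h, and in untreated cells it fell to 4.27, 4.28 and 4.09 TPM at 24 h and 4.66, 4.29 and 4.45 TPM at 48 h. Cells with TGFβ had 23.5, 22.7 and 22.7 TPM at 8 h, 9.53, 11.1 and 10.3 TPM at 24 h and 16.7, 17.3 and 16.3 TPM at 48 h. The level with TGFβ at 48 h was 0.94 of its own 0 h level, a log2 change of −0.18 that was called lower (adjusted p = 0.0076). The untreated level was lower than at 0 h by 2.14 on the log2 scale (adjusted p = 1.1e-16). Both comparisons with 0 h are between libraries of different codes. From 24 to 48 h, within 1 code, the untreated log2 change was 0.03 (adjusted p = 0.77). The arm differences were 0.54 at 8 h (adjusted p = 1.3e-07), 1.32 at 24 h (1.4e-12) and 1.92 at 48 h (1.2e-15).

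F2RL3, the gene of PAR4, was near the floor of detection with 0.214 to 0.459 TPM and 24.4 to 56.4 estimated counts per library. The libraries of the arms overlapped at each time. The log2 differences were 0.05, 0.11 and −0.15 at 8, 24 and 48 h (adjusted p = 0.87, 0.64 and 0.49), and the 95% interval at 48 h ran from −0.47 to 0.18. No difference was detectable at this depth.

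Added up, the 4 receptors came to 98.1 ± 3.6 TPM (SD, n = 3) in untreated cells at 0 h and 95.1 ± 7.6 TPM in the TGFβ arm. At 48 h the sums were 48.1 ± 1.4 TPM untreated and 363 ± 8.5 TPM with TGFβ. F2RL1 supplied 43.6% ± 2.1 of the untreated sum and 64.8% ± 0.70 of the TGFβ sum at 48 h, and F2R supplied 46.2% ± 1.5 and 30.5% ± 0.55. Untreated cells at 48 h therefore held F2R and F2RL1 at levels that overlapped between libraries, with a ratio of F2R to F2RL1 of 1.06 ± 0.083, against 0.471 ± 0.013 with TGFβ. On the log2 scale this ratio was lower with TGFβ by a mean of 0.94 over 8, 24 and 48 h (mean log2 difference −0.94), given as a description because F2R is part of it.

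**Figure D2:**
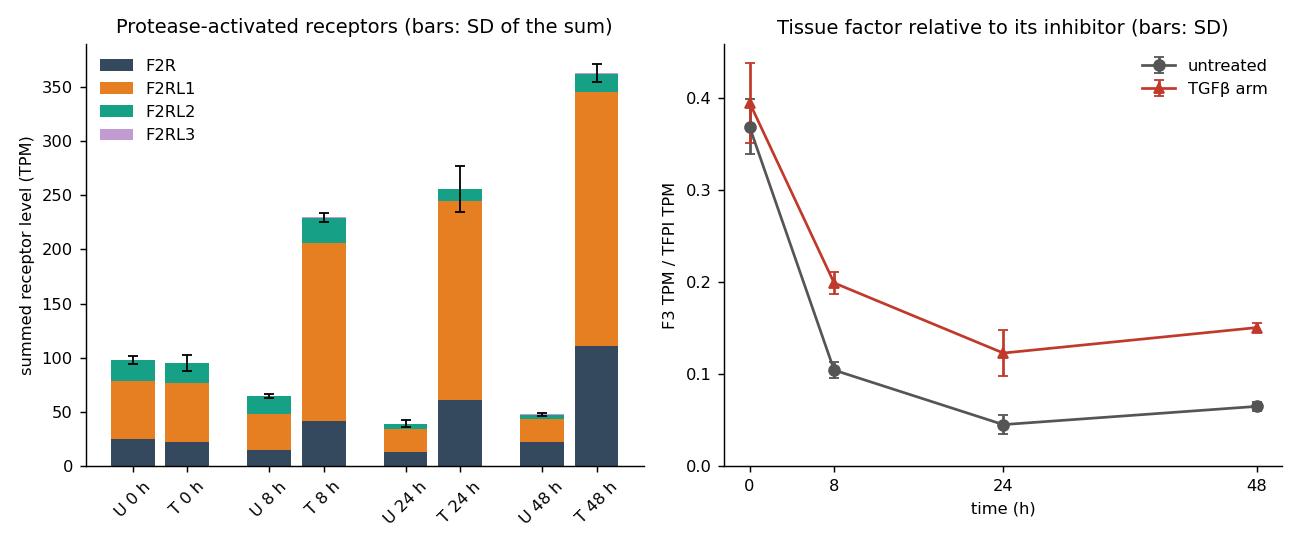
Left, summed level of the 4 receptor genes in TPM for untreated cells (U) and the TGFβ arm (T) at each time, stacked by gene, with SD of the sum over 3 libraries. Right, TPM of F3 divided by TPM of TFPI against time, mean and SD over 3 libraries, which is higher with TGFβ at 8, 24 and 48 h (0.151 against 0.065 at 48 h).

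F3 encodes tissue factor, the cell surface starter of coagulation. It had 33.0, 34.3 and 36.2 TPM in untreated cells at 0 h and dropped early in both arms. At 8 h untreated cells had 10.9, 10.3 and 11.7 TPM and cells with TGFβ 17.2, 18.1 and 17.4 TPM. At 24 h the values were 7.01, 5.47 and 6.50 TPM untreated and 13.9, 11.5 and 11.7 TPM with TGFβ, and at 48 h 11.3, 10.4 and 11.3 TPM untreated and 14.9, 14.0 and 14.2 TPM with TGFβ. TGFβ libraries were above untreated libraries each time, but all were below the 0 h levels. The log2 differences were 0.71 at 8 h (adjusted p = 3.8e-09), 1.01 at 24 h (8.1e-11) and 0.46 at 48 h (2.7e-06). The change from 24 to 48 h was −0.55 (standard error 0.091, adjusted p = 0.00023), so the difference became smaller while the untreated level rose by 0.74 (adjusted p = 1.8e-08).

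TFPI, the circulating and cell-bound inhibitor of the tissue factor complex, took a different course. In untreated cells it was at 88.2, 102 and 91.7 TPM at 0 h, 131, 166 and 138 TPM at 24 h and 167, 177 and 171 TPM at 48 h. With TGFβ it was at 94.3, 118 and 97.0 TPM at 24 h and 97.2, 92.2 and 98.6 TPM at 48 h, close to the 84.8 to 108 TPM of its 0 h libraries. The untreated rise from 0 to 48 h, between libraries of different codes, was 0.90 (adjusted p = 3.8e-09). The arm differences were −0.13 at 8 h (adjusted p = 0.30), −0.33 at 24 h (0.0023) and −0.73 at 48 h (1.9e-07). The 24 h call was lost without untreated replicate 2 (−0.25, adjusted p = 0.019), without TGFβ replicate 1 (−0.28, 0.016) or without TGFβ replicate 3 (−0.31, 0.014). It was also lost with only the libraries of the contrast (−0.32, 0.041), and scaling to 4 reference genes turned its sign (0.11, adjusted p = 0.50) and ended the 48 h call (−0.38, 0.028).

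Because F3 and TFPI act against each other, their ratio of TPM was formed within each library, where library scaling cancels. In untreated cells the ratio was 0.369 ± 0.030 at the start and 0.104 ± 0.0088, 0.045 ± 0.010 and 0.065 ± 0.0046 after 8, 24 and 48 h (SD, n = 3). With TGFβ it was 0.395 ± 0.043 at the start and 0.199 ± 0.012, 0.123 ± 0.025 and 0.151 ± 0.0049 later. The log2 ratio was higher with TGFβ by a mean of 1.20 over 8, 24 and 48 h, with a two-sided exact permutation p = 0.00025 over 8000 relabellings within time, the smallest that this design can give. In TPM, all TGFβ libraries lay above all untreated ones for F3 and below them for TFPI at 8, 24 and 48 h. The p-value was therefore fixed by the separation of the 2 genes and adds no evidence beyond it. Of the 2 ratios formed, only that of F3 to TFPI was tested.

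TFPI2, an inhibitor of plasmin and matrix-degrading proteases, was nearly the same in both arms until 24 h. It had 34.9, 39.3 and 34.7 TPM untreated and 40.0, 36.8 and 38.4 TPM with TGFβ at 24 h. At 48 h untreated cells had 63.6, 70.3 and 65.4 TPM and cells with TGFβ 54.4, 53.8 and 54.4 TPM, with no overlap. The log2 differences were −0.03, 0.10 and −0.28 at 8, 24 and 48 h (adjusted p = 0.77, 0.17 and 0.00011), and scaling to the reference genes changed the last to 0.07 (adjusted p = 0.57). The untreated level dipped and returned, falling by 0.75 from 0 to 8 h (adjusted p = 3.3e-10) and rising by 0.84 from 24 to 48 h (4.0e-11).

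PROCR, the endothelial protein C receptor, was at 62.6, 67.2 and 63.1 TPM untreated and 69.9, 69.4 and 66.5 TPM with TGFβ at 8 h, where the libraries overlapped. At 48 h it was at 69.7, 66.0 and 66.3 TPM untreated and 49.3, 47.2 and 46.6 TPM with TGFβ. The log2 differences were 0.15 (adjusted p = 0.019), −0.02 (0.80) and −0.47 (4.8e-08) at 8, 24 and 48 h. Only the 48 h difference was called (DESeq2 and the fit with only the libraries of the contrast also called the 8 h one, adjusted p = 0.0072 and 0.0056), and it was −0.12 (adjusted p = 0.088) with scaling to the reference genes.

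THBD encodes thrombomodulin, the thrombin-binding cofactor of protein C activation. Untreated cells had 11.3, 11.6 and 11.3 TPM at 8 h, 8.85, 8.80 and 9.78 TPM at 24 h and 27.8, 27.4 and 26.8 TPM at 48 h. Cells with TGFβ had 9.46, 8.92 and 9.20 TPM at 8 h, 6.73, 5.52 and 5.91 TPM at 24 h and 7.77, 7.91 and 8.19 TPM at 48 h. The libraries did not overlap from 8 h on, and the wide gap at 48 h came with an untreated rise of 1.53 from 24 to 48 h (adjusted p = 2.3e-12). The log2 differences were −0.25 at 8 h (adjusted p = 0.028), −0.56 at 24 h (2.4e-05) and −1.76 at 48 h (1.4e-13), a 3.43-fold lower mean TPM with TGFβ at 48 h. With scaling to the reference genes the 24 h value was −0.12 (adjusted p = 0.14). The 8 h difference was called without untreated 0 h replicate 1 (adjusted p = 0.0076), with library totals (−0.33, 0.0025) and with only the libraries of the contrast (−0.25, 0.00013).

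**Figure D3:**
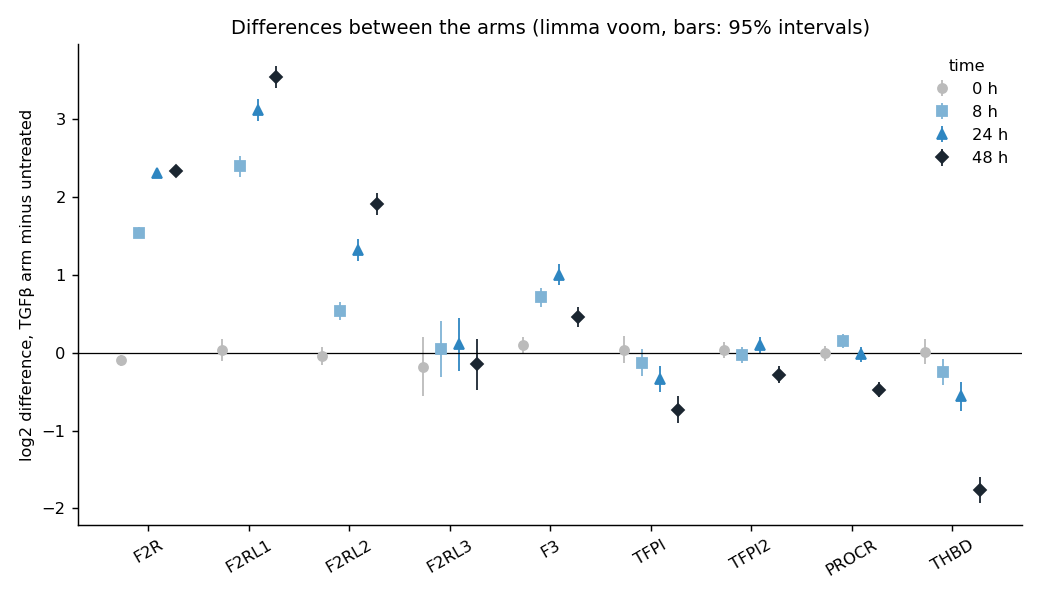
Log2 difference of each gene, TGFβ arm minus untreated (y axis, limma voom with 95% intervals), at 0, 8, 24 and 48 h. F2R, F2RL1, F2RL2 and F3 lie above 0 from 8 h on and THBD lies below 0 from 8 h on under each scaling tried, whereas scaling to the reference genes moves TFPI and PROCR at 24 h and TFPI2 and F2RL3 at 48 h above 0.

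Counted over the 8 genes other than F2R, 3 were called at 8 h (F2RL1, F2RL2 and F3, all higher), against 16.4% of all tested genes (9.12% higher and 7.26% lower). At 24 h 5 were called, against 29.3% (15.4% higher and 13.8% lower), with F2RL1, F2RL2 and F3 higher and TFPI and THBD lower. At 48 h 7 were called, against 32.6% (16.1% higher and 16.4% lower), with F2RL1, F2RL2 and F3 higher and TFPI, TFPI2, PROCR and THBD lower. By the TPM of the libraries, 3 of the same 8 genes lay wholly above and 2 wholly below at 8 h, against 16.2% and 31.2% of tested genes (47.4% together). At 24 h 3 lay above and 3 below, against 17.2% and 23.2% (40.3% together), and at 48 h 3 lay above and 4 below, against 24.4% and 30.7% (55.1% together). With the summed counts of 4 reference genes as library size the calls were 6 higher and 0 lower at 24 h and 3 higher and 1 lower at 48 h. That scaling moved the median of all genes from −0.02 to 0.43 at 24 h and from −0.01 to 0.34 at 48 h. Of the 4 reference genes, 2 were themselves called lower at 24 h and 3 at 48 h under the usual scaling. Among those at 48 h were HPRT1 and GAPDH (−0.56 and −0.40). Relative to the medians of all genes under that scaling, TFPI at 24 h and TFPI2 and PROCR at 48 h lay on the lower side.

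The change of the arm difference was also tested. From 0 to 8 h 3 of the 8 genes were called (F2RL1, F2RL2 and F3), all upward, against 7.88% of all tested genes (5.05% upward and 2.84% downward). From 24 to 48 h 6 were called, against 9.11% (3.5% upward and 5.61% downward): F2RL1 and F2RL2 moved up, and F3, TFPI2, PROCR and THBD moved down. From 8 to 48 h 5 were called, against 14% (6.69% upward and 7.34% downward), F2RL1 and F2RL2 upward and TFPI, PROCR and THBD downward. From 8 to 48 h the change was −1.51 for THBD and 1.38 for F2RL2 (adjusted p = 3.6e-09 and 1.9e-10).

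Untreated cells were not steady after serum deprivation. In untreated cells 6 of the 8 genes other than F2R were called lower at 8 h than at 0 h, against 25.9% of all tested genes in either direction (13.2% higher and 12.7% lower). The largest of these was F3, which fell by 1.68 (adjusted p = 5.9e-15), and the exceptions were F2RL3 and TFPI with −0.14 and 0.16. At 48 h against 0 h 7 of the 8 were called, against 55.1% of all tested genes (28% higher and 27.1% lower): F2RL1, F2RL2, F3, TFPI2 and PROCR were lower, and TFPI and THBD were higher. The untreated libraries of 0 and 48 h carry different codes, so code and time cannot be told apart in that comparison. Between 24 and 48 h 4 were called, against 28.4% (14.7% higher and 13.6% lower), and these 4 (F3, TFPI, TFPI2 and THBD) were all higher at 48 h. Under scaling to the reference genes the 0 to 48 h values of TFPI2 and PROCR were −0.03 and 0.03, neither of them called, and the call of PROCR was kept in 6 of 12 other settings. TFPI from 24 to 48 h lost its call without untreated 24 h replicate 1 or 3 or without untreated 48 h replicate 2 or 3, and it was kept in 9 of 12 other settings. At 8 h F2RL2 lost its call without untreated 0 h replicate 2 or 3 or untreated 8 h replicate 2 or 3 and kept it in 6 of 12 other settings. PROCR lost its 8 h call without untreated 0 h replicate 1 or untreated 8 h replicate 1 or 3, and its 48 h call without untreated 0 h replicate 1 (−0.14, adjusted p = 0.019).

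**Figure D4:**
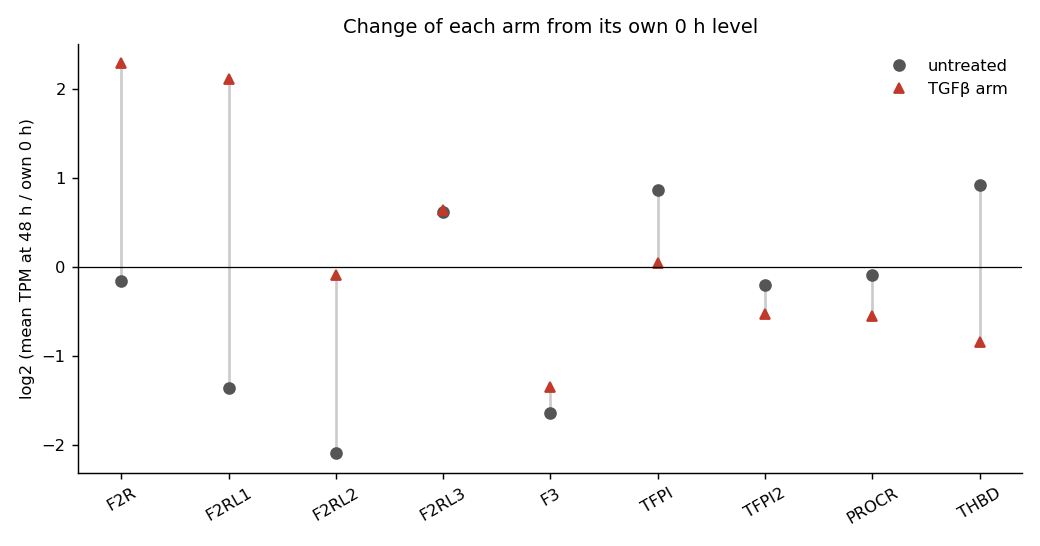
Log2 ratio of the mean TPM at 48 h to the mean TPM of the same arm at 0 h, for untreated cells (grey circles) and the TGFβ arm (red triangles), joined per gene. For F2R the ratio of the TGFβ arm was 4.87 and of untreated cells 0.897, for TFPI 1.03 and 1.82, and for THBD 0.558 and 1.90. The 0 and 48 h libraries carry different codes within each arm.

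The order of levels changed with these movements. At 0 h TFPI was highest in both arms, followed by TFPI2, PROCR, F2RL1, F3, F2R, F2RL2, THBD and F2RL3, and of these neighbours only TFPI2 and PROCR overlapped between untreated libraries. At 48 h untreated cells had TFPI first, then PROCR and TFPI2, whose libraries overlapped, then THBD, then F2R and F2RL1, whose libraries overlapped, and then F3, F2RL2 and F2RL3. Cells with TGFβ at 48 h had F2RL1 first, then F2R, TFPI, TFPI2, PROCR, F2RL2, F3, THBD and F2RL3, with no overlap between neighbours.

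At the transcript level, the receptor genes were read almost wholly from 1 transcript each. In the group means the leading transcript made up 97.9% to 99.8% of F2R, 95.6% to 98.9% of F2RL1 and 93.9% to 99.0% of F2RL2. The leading transcript of F3 made up 70.4% ± 6.2 in untreated cells and 71.6% ± 1.6 with TGFβ at 48 h. TFPI was spread over several transcripts, of which TFPI-201 made up 33.1% ± 1.8 untreated and 33.6% ± 1.6 with TGFβ at 48 h, with overlapping libraries. The share of TFPI-203 was 28.7% ± 1.7 untreated and 31.9% ± 2.1 with TGFβ, and that of TFPI-210 was 21.4% ± 1.8 and 17.2% ± 1.7. Neither overlapped between the arms, but the ranges nearly touched. For TFPI-203 the highest untreated share was 30.53% and the lowest with TGFβ 30.62%. For TFPI-210 the lowest untreated share was 19.25% and the highest with TGFβ 19.15%. At 0 h TFPI-203 was already at 27% ± 2.4 untreated and 35.3% ± 7.7 in the TGFβ arm, with overlapping libraries. These shares were not tested, and such estimates within a gene depend on how reads were divided among overlapping transcripts.

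The partners of these genes were followed through lists of known pathway members. Of 22 coagulation factors and vitamin K enzymes 17 were tested, and at 48 h 4 were higher, 2 lower and 11 not called, with a median log2 difference of 0.10 beside −0.01 over all genes. Over all tested genes 32.6% were called at 48 h (16.1% higher and 16.4% lower), and 6 of 17 is near that share. Under the reference gene scaling the split was 9 higher and 2 lower. PROC, the gene of protein C, the zymogen that PROCR binds, had 1.08, 2.25 and 2.10 TPM untreated and 60.0, 61.5 and 59.6 TPM with TGFβ at 48 h, a log2 difference of 5.26 (adjusted p = 1.1e-14). F2, the gene of prothrombin, had 0.067, 0.019 and 0.032 TPM untreated (1 to 2 estimated counts) and 0.891, 1.06 and 1.17 TPM with TGFβ (46 to 58 estimated counts) and was called (adjusted p = 3.7e-07), at a level far below PROC. GAS6, a vitamin K-dependent ligand of TAM receptors, was higher with 106 ± 5.5 against 54.1 ± 2.0 TPM (log2 difference 1.01, adjusted p = 6.4e-07). FGG, a fibrinogen chain, was lower with 0.982 ± 0.18 against 13.2 ± 1.2 TPM (−3.65, adjusted p = 2.6e-14), and FGA was listed at 0 in the 3 TGFβ libraries and at 0.224 ± 0.015 TPM untreated.

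Of 8 inhibitors of coagulation proteases 7 were tested, and 3 were higher, 2 lower and 2 not called at 48 h, against 16.1% higher and 16.4% lower over all tested genes, with a median of 0.58. SERPINE2, which encodes protease nexin-1, an inhibitor of thrombin, was higher with 114 ± 4.4 against 48.2 ± 1.7 TPM (log2 difference 1.29, adjusted p = 9.3e-15). A2M, a broad trap of proteases, was lower with 31.1 ± 1.4 against 185 ± 4.1 TPM (−2.57, adjusted p = 4.5e-18), and SERPINA1 was lower with 166 ± 3.4 against 351 ± 5.2 TPM (−1.06, adjusted p = 1.6e-15).

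Of 19 proteases that can cut these receptors 12 were tested, and 6 were higher, 3 lower and 3 not called at 48 h, against 16.1% higher and 16.4% lower over all tested genes, with a median of 0.47. PRSS2, a trypsinogen gene, had 45.9, 51.6 and 47.9 TPM untreated and 1052, 1055 and 1043 TPM with TGFβ (log2 difference 4.47, adjusted p = 5.3e-21). PRSS1 and PRSS3 were also higher (4.63 and 1.44), but the trypsinogen genes are close paralogs, and the division of reads among them is uncertain. MMP1, a collagenase that can cut PAR1, was lower with 0.351 ± 0.095 against 8.97 ± 0.83 TPM (−4.66, adjusted p = 2.3e-12). MMP13 was higher at a low level, with 1.11 ± 0.084 against 0.367 ± 0.077 TPM (1.67, adjusted p = 4.6e-06). MMP2, the listed protease with the highest level at 48 h, had 2287 ± 25 TPM with TGFβ and 814 ± 9.2 TPM untreated. KLK4, called lower, lost its call on both TPM scales and with length-scaled counts. TMPRSS2, a membrane-bound serine protease, was lower with 0.606 ± 0.055 against 3.83 ± 0.091 TPM (−2.72, adjusted p = 8.8e-14).

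**Figure D5:**
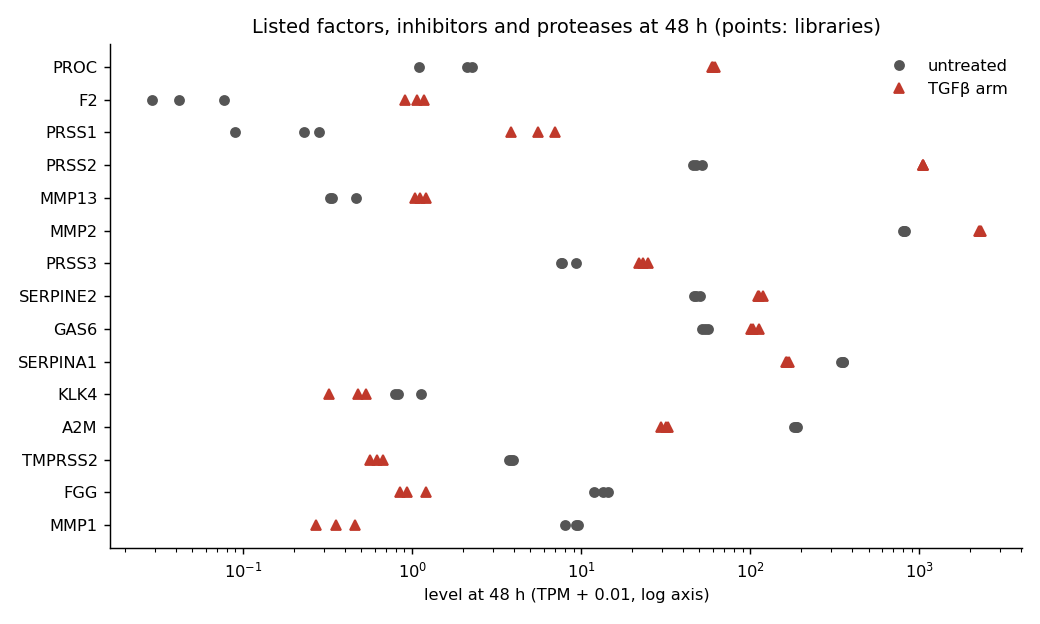
Levels at 48 h in TPM plus 0.01 (log axis) of the listed factors, inhibitors and proteases called with a difference of at least 2-fold, apart from FGA, with untreated libraries as grey circles and TGFβ libraries as red triangles, 3 each. PROC lies near 60 TPM in the TGFβ libraries and near 2 TPM in untreated ones, and the points of the arms do not overlap for any gene shown.

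All 20 listed G proteins and effectors of these receptors were tested, and 7 were higher, 3 lower and 10 not called at 48 h, with a median of 0.13 (13 higher and 1 lower under the reference gene scaling). The shares over all tested genes were 16.1% higher and 16.4% lower, so the number lower was near the background. GNA12, a G protein subunit that links receptors to RhoA, was higher by 0.80 (adjusted p = 2.2e-11) and GRK5, a kinase that switches receptors off, by 0.84 (5.9e-09). ARRB2, a β-arrestin that binds activated receptors, was lower by 0.85 (log2 difference −0.85, adjusted p = 2.6e-10).

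The time courses most like those of the members were sought among 2959 genes with at least 5 TPM in some group and a range of at least 1 on the log2(TPM + 1) scale, by Pearson's r of the 8 group means. For F2R these were KLHL25 (r = 0.987), ITGB5 (0.980) and FRS2 (0.979), and for F2RL1 MSC (0.995), MS4A4E (0.994) and FRMD5 (0.993). For TFPI they included CPVL (0.993) and GUCY1A1 (0.991), and for THBD they were CSF2 (0.960), JAK2 (0.957) and CCDC88C (0.945). The closest genes were BOC (0.959), HKDC1 and NES for F2RL2, PLEKHG4B (0.984), MB21D2 and STC2 for F3, ABCA1 (0.883), HSPA8 and LYPD1 for TFPI2, and ENO1 (0.934), AGK and GADD45A for PROCR. All 8 group means share their libraries between genes, and these r values describe likeness over 8 points only.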

How the data were processed

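The authors quantified the reads of 24 RNA-Seq libraries with kallisto 0.43.0 against Ensembl release 79 transcripts of GRCh38 and deposited 1 table per library with 173259 transcripts. The estimated counts deposited by the authors are not normalized, and the deposited TPM values are scaled per transcript length and library. The deposited effective lengths served only for length-scaled counts. Transcripts were assigned to genes with GENCODE 44 (155518 matched, 89.8%, carrying 94.82% to 95.18% of the counts), and TPM and counts were summed per gene. Rounded counts of genes reaching 10 in 3 or more libraries entered limma 3.58.1 (voom, TMM, 1 mean per group, R 4.3.3). The F3 to TFPI ratio used an exact permutation test. edgeR 4.0.16, DESeq2 1.42.0, other scalings, filters, units, a replicate block and each library left out in turn were alternatives, and for the lists these were added after seeing the data. Tests were first tried on simulated data. The members and lists were chosen with earlier results of these data known. The named genes are the 9 members, list genes (first those with at least 2-fold called differences at 48 h) and the 3 genes most like each member, of which some are not reported here. The counts of all 24 replicate pairs differed beyond sampling noise. Protein sequences were not used here. Figures were drawn with matplotlib 3.10.9.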

Additional observations from a re-analysis of the deposited data

Results flagged for a closer look

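For 7 members the difference between the arms itself changed with time in limma voom (adjusted p below 0.01). The values are changes of the log2 difference, TGFβ arm minus untreated. From 24 to 48 h it rose by 0.42 for F2RL1 (standard error 0.097, adjusted p = 0.0042) and by 0.60 for F2RL2 (0.095, 0.00015). Over the same time the change was −0.55 for F3 (0.091, 0.00023), −0.38 for TFPI2 (0.074, 0.0012), −0.46 for PROCR (0.067, 5.7e-05) and −1.20 for THBD (0.12, 4.6e-07). From 8 to 48 h the change was 1.15 for F2RL1 (0.095, 1.3e-08), 1.38 for F2RL2 (0.086, 1.9e-10), −0.60 for TFPI (0.11, 0.00053), −0.63 for PROCR (0.066, 4.3e-07) and −1.51 for THBD (0.11, 3.6e-09). Changes from 24 to 48 h compare libraries of 1 code within each arm, and changes from 8 to 48 h do not. The 24 to 48 h call of F2RL1 was lost without untreated 24 h replicate 2, untreated 48 h replicate 1, TGFβ 24 h replicate 1 or 3 or TGFβ 48 h replicate 3, with values between 0.35 and 0.41 and adjusted p between 0.011 and 0.017, and in 5 of 12 other settings. No further library left out ended a call named here. Scaling to the reference genes ended the 24 to 48 h calls of F2RL2, F3 and TFPI2 (adjusted p = 0.073, 0.013 and 0.051 in limma voom). It also ended the 8 to 48 h call of TFPI (−0.30, adjusted p = 0.24). The limma fit on log2(TPM + 1) ended the 24 to 48 h call of F3 as well (−0.52, adjusted p = 0.011).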

How the results depend on the processing

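Numbers of called members are over the 8 genes other than F2R. With only the libraries of the contrast, 6 were called at 8 h in place of 3, and 5260 genes were called at 8 h, 2733 at 24 h and 7531 at 48 h in place of 2859, 5112 and 5686. With 4 reference genes as library size 4 were called at 48 h in place of 7 and 2 for the 24 to 48 h change in place of 6. In untreated cells from 24 to 48 h F2RL2, F2RL3 and PROCR were added under that setting. That setting also called 11 coagulation factors at 48 h, and a mean of at least 50 counts called 3, in place of 6. It turned the log2 difference of TFPI2 at 8 h (0.027) and 48 h (0.071), of TFPI (0.11) and PROCR (0.43) at 24 h and of F2RL3 at 48 h (0.20). TFPI2 at 8 h was also positive with log2(TPM + 1) (0.011), log2(TPM + 0.1) (0.011) and length-scaled counts (0.064), and F2RL3 at 8 h was negative with library totals (−0.031) and log2(TPM + 1) (−0.00086).

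Leaving out each library in turn gave 0 called members at the start, 3 to 4 after 8 h, 4 to 5 after 24 h and 7 after 48 h. It gave 3 for the 0 to 8 h change, 5 to 7 for 24 to 48 h and 5 to 6 for 8 to 48 h. In untreated cells the calls lost in some of these fits were F2RL2 and PROCR at 8 h, PROCR at 48 h against 0 h and TFPI at 48 h against 24 h. F2RL3 was called at 48 h against 0 h in 3 of 24 such fits. F2RL3 at 8 h went to −0.076 and −0.015 and PROCR at 24 h ranged from −0.044 to 0.0068 in such fits. The mean log2 difference between the arms stayed between 1.13 and 1.25 for the F3 to TFPI ratio. For the F2R to F2RL1 ratio it stayed between −0.96 and −0.92.

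The labels do not say whether same-numbered libraries were paired. The correlation of their deviations was between −0.060 and 0.25 over 12 pairs, with 4 over 0.1. It was positive for each replicate at 0 h (0.16, 0.24 and 0.070) and at 24 h (0.13, 0.25 and 0.064). Differently numbered pairs ran from −0.19 to 0.053 at 0 h and from −0.18 to 0.082 at 24 h. At 8 and 48 h same-numbered pairs lay between −0.060 and 0.094. Pairing itself was not tested. With the replicate block the calls were 0, 3, 5 and 7 members at the 4 times in order and 3 for the 0 to 8 h change. They were 7 for 24 to 48 h (TFPI added, adjusted p = 0.0042) and 6 for 8 to 48 h (TFPI2 added, 0.0024). In untreated cells at 48 h against 0 h F2RL3 was added (0.0077). The block changed no other call of a member. Depth limits F2RL3 most, which the filter on a mean of 50 counts removed, so that this setting gives no value for it.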

Other observations

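The protein-coding neighbours of the chromosome 5 receptor cluster were examined after the values of the cluster had been seen. SV2C, IQGAP2, S100Z and AGGF1 were not called at 8, 24 or 48 h, with log2 differences at 48 h of 0.25, −0.27, 0.68 and 0.18 (adjusted p = 0.64, 0.050, 0.35 and 0.029). SV2C (0.020 TPM untreated and 0.023 TPM with TGFβ at 48 h) and S100Z (0.099 and 0.18 TPM) were near the floor. Their standard errors at 48 h were 0.38 and 0.54, so these 2 genes say little. Over all tested genes 32.6% were called at 48 h. ZBED3 was lower with TGFβ by limma voom, with a log2 difference of −0.89 at 48 h (adjusted p = 9.3e-10), and PDE8B was lower at 48 h (−0.51, 0.00083). ZBED3 had 1.27 TPM with TGFβ and 2.52 TPM untreated at 48 h. CRHBP was below the filter on counts.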
